A study of Mus musculus with 2 samples.

Results

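A small share of the open chromatin of the embryonic heart lay on coding sequence far from the starts of protein-coding transcripts. Of 96639 accessible regions on the 19 autosomes that were shared by both replicates, 2118 (2.19%) overlapped coding sequence (CDS) by at least 1 bp while their midpoint lay more than 10 kb from every start of a protein-coding transcript. They were chosen by position, from the GENCODE M21 annotation of the mouse genome build mm10 (GRCm38), and their fold enrichment was not used in the choice. The overlap with CDS favours longer regions, however, and among those chosen the strongest were longer. With the starts of all annotated transcripts in place of protein-coding ones, 953 regions were found. They are called distal coding-exon regions here. They fell on 1698 host genes, of which 1381 carried 1 region and 242 carried 2, while *Ddc* and *Igf2r* carried 6 each.

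The samples were hearts of wildtype (WT) FVB mouse embryos at E11.5, at 49 to 51 somites, profiled by ATAC-seq, in which the transposase Tn5 inserts sequencing adapters into open DNA. Both replicates, each a pair of microdissected hearts, belong to 1 group with no allele or treatment, so no condition was compared, no test between groups was possible, and all values are given per replicate as descriptions. Whole hearts mix muscle, endothelium, epicardium, cushion cells and blood, and fewer cells with an open site cannot be told apart from less opening per cell. A shared region is the part of a replicate 1 peak that a replicate 2 peak covers. Fold enrichment, the authors' value for each peak, is the ratio of the reads piled up at the summit to the genome-wide background.

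Regulatory elements such as enhancers are short stretches of open DNA to which transcription factors bind, and they act on promoters over a distance. Most lie in introns or between genes, but some lie on exons, where the same bases both encode protein and bind factors. An enhancer on an exon may act on its host gene or on a neighbour, and open chromatin on an exon may also mark an internal promoter from which a shorter transcript starts.

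Of the distal coding-exon regions with the summits of both replicates inside CDS, the 10 strongest whose window holds no untranslated sequence are shown as sequence, because here the most accessible bases themselves encode protein. The region on the last exon of *Unc13a*, a synaptic vesicle priming factor, had 30.7 in replicate 1 and 25.9 in replicate 2, which by the mean ranks above that of *Cacna1a*, but its window holds untranslated sequence and is not shown. Each window holds the replicate 1 summit with 100 bp on each side, read 5′ to 3′ on the strand of the host gene from the RefSeq GRCm38 genome, with CDS in capitals and intron in lower case.
*Inpp5b* (chr4:124751404-124751604, plus strand): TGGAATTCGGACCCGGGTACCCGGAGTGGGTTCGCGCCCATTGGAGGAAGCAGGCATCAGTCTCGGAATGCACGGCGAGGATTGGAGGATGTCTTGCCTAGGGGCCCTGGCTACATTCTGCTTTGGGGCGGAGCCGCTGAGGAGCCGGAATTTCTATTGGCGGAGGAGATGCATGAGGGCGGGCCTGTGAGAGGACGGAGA
*Ppfibp2* (chr7:107708726-107708926, plus strand): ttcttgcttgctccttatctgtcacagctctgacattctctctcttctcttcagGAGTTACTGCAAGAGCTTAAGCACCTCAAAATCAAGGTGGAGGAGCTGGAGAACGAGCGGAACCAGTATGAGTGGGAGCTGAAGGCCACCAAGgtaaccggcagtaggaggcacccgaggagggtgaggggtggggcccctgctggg
*Nrip1* (chr16:76293926-76294126, minus strand): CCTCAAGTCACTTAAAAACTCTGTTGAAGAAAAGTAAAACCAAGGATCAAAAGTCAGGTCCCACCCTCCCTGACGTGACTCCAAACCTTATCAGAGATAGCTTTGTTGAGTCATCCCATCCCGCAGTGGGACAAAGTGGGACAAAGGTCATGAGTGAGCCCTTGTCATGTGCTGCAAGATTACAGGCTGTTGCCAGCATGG
*Cacna1a* (chr8:84639460-84639660, plus strand): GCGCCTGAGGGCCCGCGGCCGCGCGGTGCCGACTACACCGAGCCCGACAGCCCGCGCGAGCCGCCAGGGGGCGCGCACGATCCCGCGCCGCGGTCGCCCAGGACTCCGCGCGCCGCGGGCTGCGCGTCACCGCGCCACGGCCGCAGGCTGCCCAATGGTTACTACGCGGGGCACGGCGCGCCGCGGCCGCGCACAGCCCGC
*Brdt* (chr5:107359503-107359703, plus strand): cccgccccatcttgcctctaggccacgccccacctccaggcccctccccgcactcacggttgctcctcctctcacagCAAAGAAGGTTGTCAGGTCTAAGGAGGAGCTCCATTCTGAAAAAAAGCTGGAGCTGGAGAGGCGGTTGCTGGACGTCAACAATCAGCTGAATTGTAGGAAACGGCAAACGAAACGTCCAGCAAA
*Tekt5* (chr16:10358108-10358308, minus strand): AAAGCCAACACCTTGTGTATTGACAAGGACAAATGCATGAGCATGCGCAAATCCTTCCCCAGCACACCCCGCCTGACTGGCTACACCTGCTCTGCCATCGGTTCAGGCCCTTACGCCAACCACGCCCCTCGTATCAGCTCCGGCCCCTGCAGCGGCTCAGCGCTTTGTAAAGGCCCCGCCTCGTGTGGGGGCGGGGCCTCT
*Clint1* (chr11:45906263-45906463, plus strand): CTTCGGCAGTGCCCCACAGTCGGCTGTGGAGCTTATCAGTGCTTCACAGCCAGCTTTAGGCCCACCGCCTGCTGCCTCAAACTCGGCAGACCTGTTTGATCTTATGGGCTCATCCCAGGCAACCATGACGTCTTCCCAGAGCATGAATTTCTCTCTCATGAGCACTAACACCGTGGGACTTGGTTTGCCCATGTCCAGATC
*Zfp697* (chr3:98427691-98427891, plus strand): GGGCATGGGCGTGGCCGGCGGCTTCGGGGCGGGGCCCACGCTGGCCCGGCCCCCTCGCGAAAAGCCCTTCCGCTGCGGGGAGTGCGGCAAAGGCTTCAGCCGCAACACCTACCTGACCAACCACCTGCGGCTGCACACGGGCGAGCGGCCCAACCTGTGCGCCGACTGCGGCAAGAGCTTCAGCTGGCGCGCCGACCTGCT
*Arhgap28* (chr17:67864492-67864692, minus strand): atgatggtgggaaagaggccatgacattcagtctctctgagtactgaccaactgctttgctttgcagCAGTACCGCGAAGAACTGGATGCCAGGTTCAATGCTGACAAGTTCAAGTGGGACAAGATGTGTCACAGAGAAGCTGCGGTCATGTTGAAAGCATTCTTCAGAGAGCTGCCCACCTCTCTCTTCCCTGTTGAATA
*P4ha1* (chr10:59348299-59348499, plus strand): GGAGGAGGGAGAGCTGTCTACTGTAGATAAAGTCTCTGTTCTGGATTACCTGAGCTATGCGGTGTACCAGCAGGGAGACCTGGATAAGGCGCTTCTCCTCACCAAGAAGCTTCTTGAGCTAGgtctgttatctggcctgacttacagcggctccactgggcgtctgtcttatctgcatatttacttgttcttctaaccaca

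Among these 10 windows, 6 were wholly coding and 4 crossed a splice site, namely those of *Ppfibp2*, *Brdt*, *Arhgap28* and *P4ha1*. The *P4ha1* window, on a subunit of the collagen prolyl 4-hydroxylase, held the GATA letters (GATAA on either strand) 4 times, counted from 1 at the 5′ end: at positions 26 to 30 and 83 to 87 in the exon and at 128 to 132 and 169 to 173 in the intron that follows. In *Nrip1*, a nuclear receptor corepressor whose protein is encoded in 1 exon, the window held NKX2 letters (CACTTNA) at positions 9 to 15, GATA letters at 88 to 92 and AP-1 letters (TGANTCA) at 107 to 113. GATA letters also stood in the *Clint1* window, at 33 to 37 in CDS, and in the *Ppfibp2* window, at 15 to 19 ahead of the exon. The *Inpp5b*, *Tekt5* and *Zfp697* windows held SP and KLF letters (GGGCGG) in CDS. None of the 14 motifs had an exact match in the *Cacna1a* window, which has a GC content of 82.1%. Stretches that differ from a motif by a single base, such as near matches to the CTCF core, were not counted in any window. These matches are descriptions of letters and not binding sites.

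*Inpp5b*, which encodes an inositol polyphosphate 5-phosphatase, carried the strongest region with both summits in CDS, at 39.1-fold over background in replicate 1 and 39.5-fold in replicate 2. It covered the whole of exon 6 of 23 (381 bp of CDS). Its midpoint lay 10021 bp from the nearest protein-coding start, close to the limit of the rule, and a non-coding transcript and a long non-coding RNA gene start within 1 kb of it. On *Ppfibp2*, a liprin, the region of exon 6 had 28.5 and 29.7, and the exon of *Nrip1* had 27.98 and 28.9. The replicates differed little at these 3 regions.

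The last exon of *Cacna1a*, a subunit of the neuronal P/Q-type calcium channel, carried a region with 28.2 and 27.9. *Brdt*, a testis bromodomain protein, had 29.9 and 25.6, the widest gap of the 10 shown. *Cacna1a* and *Brdt* have the start of a non-coding transcript within 1 kb. *Tekt5*, a tektin of sperm flagella, had 24.2 and 26.4. *Brdt* and *Tekt5* are known for roles in male germ cells, and accessibility of an exon is not a measure of expression of its gene. *Clint1*, a clathrin adaptor, had 23.6 and 24.9, *Zfp697*, a zinc finger protein, had 22.8 and 23.6, *Arhgap28* had 24.7 and 21.4, and *P4ha1* had 22.5 and 23.4. The region on *Zfp697* was almost wholly coding, with 1432 bp of CDS in 1514 bp, the largest coding overlap of all 2118.

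The strongest distal coding-exon regions mostly peaked beside the coding sequence rather than in it. Of the 10 with the highest mean fold enrichment, only that of *Inpp5b* had its summits in CDS, 7 had both in an intron and 2 in other exonic sequence. *Uggt2*, a relative of the glycoprotein folding sensor of the endoplasmic reticulum, had the highest mean, with 48.9 in replicate 1 and 44.2 in replicate 2 (chr14:119006888-119008417). *Prdm2*, a PR domain zinc finger protein, followed with 44.5 and 45.0 (chr4:143161449-143162710). *Arid3a*, an AT-rich DNA-binding factor, had 32.3 and 39.97 (chr10:79945283-79948029). Of these, *Uggt2* and *Arid3a* have the start of a non-coding transcript within 1 kb, and *Prdm2* that of a RefSeq mRNA.

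*Trim14*, of the tripartite motif family, had 35.9 and 33.9 in its last exon, with both summits just outside the CDS. *Clasp1*, which binds the plus ends of microtubules, had 33.1 and 35.4, with starts of a non-coding transcript and a long non-coding RNA gene within 1 kb. The single coding exon of *A930004D18Rik* had 33.4 and 34.2, and *Samd7* had 33.7 and 32.9. *Fer1l6*, a ferlin, had 30.4 and 33.9 at 85.1 kb from the nearest protein-coding start in GENCODE, with the start of a RefSeq mRNA within 1 kb. *Alpl*, the tissue-nonspecific alkaline phosphatase, had 28.8 and 32.2. All 10 reached at least 28.8 in replicate 1 and 32.2 in replicate 2, where *Alpl* was the lowest of them in both.

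**Figure D1:**
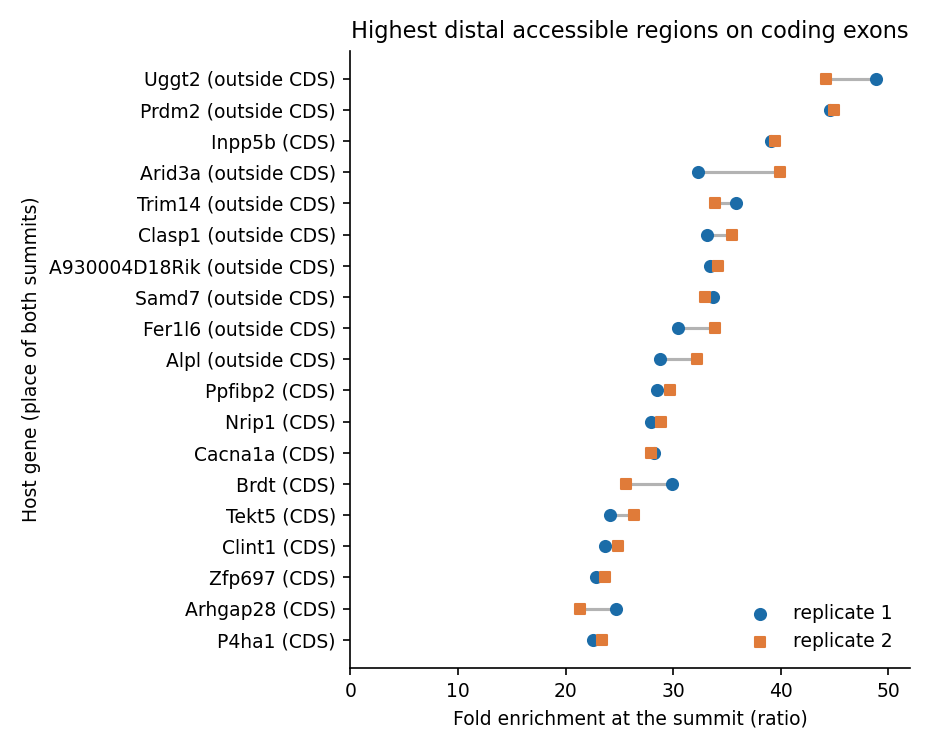
Fold enrichment (x axis, ratio) of the 10 highest distal coding-exon regions and the 10 with both summits in CDS that are shown as sequence (without *Unc13a*), by host gene, with a circle for replicate 1, a square for replicate 2 and a line joining them. *Uggt2* reached 48.9 and 44.2, *Inpp5b* is in both sets, and the largest gap is that of *Arid3a*, at 32.3 and 39.97.

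The typical distal coding-exon region was far weaker than these. The median fold enrichment was 6.52 in replicate 1 (quartiles 4.89 and 9.78, range 2.99 to 48.9) and 6.03 in replicate 2 (quartiles 4.53 and 9.05, range 2.77 to 45.0). In both replicates 69 (3.26%) exceeded 20, beside 1.123% of distal intronic, 1.89% of distal intergenic and 9.33% of all shared regions. At a q-value of at most 1e-10 in both replicates 1006 were retained, which is 47.5% of them, beside 45.7% of all shared regions and 35.9% of distal intronic regions.

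Compared with other distal regions, those on coding exons had a slightly higher fold enrichment. Distal intronic regions had medians of 5.98 in replicate 1 and 5.28 in replicate 2, so that the coding-exon median was 1.09 and 1.14 times theirs. Against distal intergenic regions the ratio was 1.04 and 1.09. Regions within 1 kb of a start had medians of 19.6 and 19.9, and the coding-exon median was 0.333 and 0.304 of that. The median length was 413 bp on coding exons and 340 bp in introns, but a longer region overlaps an exon more easily, so the rule itself favours length. On coding exons the median length was 1338.5 bp in the 100 strongest regions against 400 bp in the rest. Those with both summits in CDS had medians of 6.25 and 5.78, nearer the intronic values. The part of length in the higher fold enrichment was not tested.

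**Figure D2:**
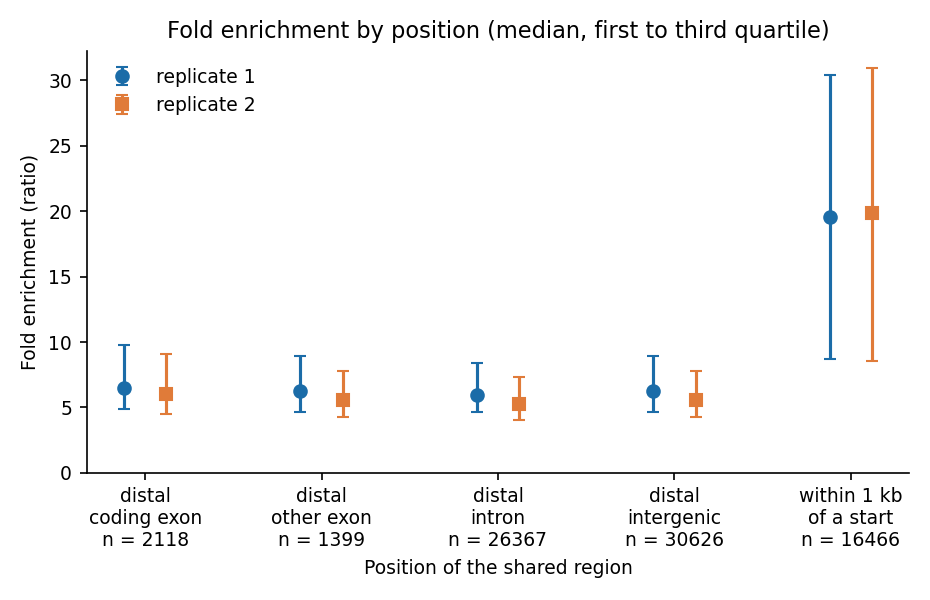
Median fold enrichment (ratio, y axis) of shared regions by position, with bars from the first to the third quartile, for replicate 1 (circles) and replicate 2 (squares). The 4 distal classes lie close together, with coding-exon medians of 6.52 and 6.03, and regions within 1 kb of a start lie above, at 19.6 and 19.9.

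The replicates ranked the distal coding-exon regions alike. Across the 2118 regions, which are not independent replicates, the Spearman correlation was 0.80, and 78 were among the 100 highest of both replicates. Replicate 1 gave the higher value in 1374 (64.9%), and 45 differed more than 2-fold. Of these 45, 36 have a peak in one list that spans several shared regions, so that 1 fold enrichment was carried to each of them. Without the regions of such peaks and those with a summit outside the shared span, 1842 were left, with a Spearman correlation of 0.844 and 9 that differed more than 2-fold. Of the distal coding-exon peaks called in replicate 1, 83.0% overlapped a peak of replicate 2, and in the opposite direction 83.8% did, beside 76.3% and 80.7% of distal intronic peaks and 81.1% and 82.7% of those on other exonic sequence.

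**Figure D3:**
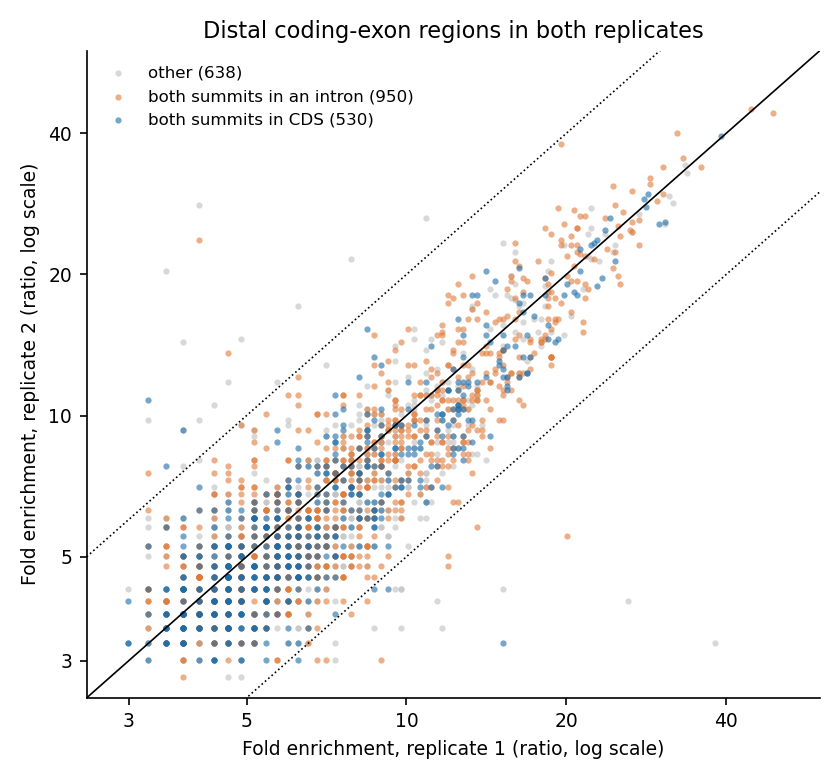
Fold enrichment of each of the 2118 distal coding-exon regions in replicate 1 (x axis) and replicate 2 (y axis), both on log scales, coloured by the place of both summits. The solid line marks equal values and the dotted lines a 2-fold difference, which 45 regions exceed. Points fall on a grid because the deposited fold enrichment takes evenly spaced values.

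Coding sequence was the smaller part of these regions. The median overlap with CDS was 111 bp (range 1 to 1432), and 27.7% of all their bases were coding. At least 50% of the length was CDS in 448 regions, and 121 were wholly CDS, whereas 1047 held a whole coding exon together with sequence around it. The exon was internal in 1638 (77.3%), the last in 421 (19.9%), the first in 39 and the only one in 20.

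Both summits lay in CDS in 530 regions (25.0%), in an intron in 950 (44.9%) and in other exonic sequence in 198 (9.35%), and in 440 (20.8%) the summits of the replicates lay in different parts. Regions that peaked in CDS had medians of 6.25 and 5.78, those that peaked in an intron 7.33 and 6.54, and those in other exonic sequence 7.88 and 7.04. The share of summits in CDS was lower among strong regions than among weak ones. Among the 25% of regions with the highest fold enrichment, 25.8% of summits were in CDS in replicate 1 and 26.3% in replicate 2, against 41.3% and 44.2% among the lowest 25%. Strong regions were also longer, with a median of 1338.5 bp in the 100 highest against 400 bp in the rest, and a smaller part of them was CDS, with medians of 13.0% and 26.6%. The part of length in this was not tested.

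**Figure D4:**
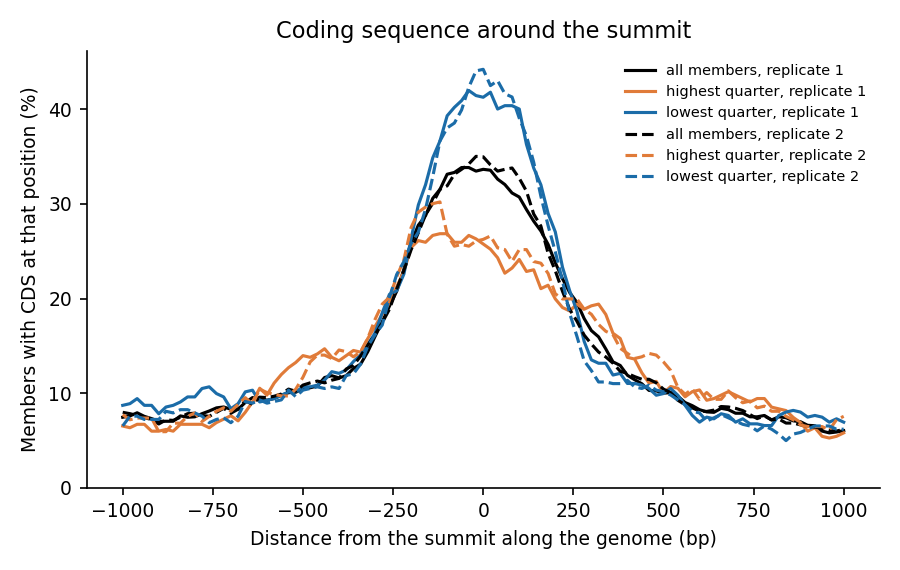
Percent of distal coding-exon regions with CDS (y axis) at each distance in bp from the summit (x axis, along the genome), for all regions and for the highest and lowest 25% by fold enrichment, with replicate 1 as solid and replicate 2 as dashed lines. CDS stood at the summit in 33.7% and 35.0% of all regions, close to the highest share of the curve, and at 1000 bp the share was between 6.04% and 7.98%.

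Per base, distal exonic sequence, coding or not, was accessible slightly more often than intron. Shared regions covered 2.00% of 15582075 distal coding bases, 2.05% of other distal exonic bases, 1.75% of distal intronic bases and 1.06% of distal intergenic bases. The ratio of CDS to intron was 1.14, against 1.18 for other exonic bases, and it was 1.09 and 1.16 in the peak lists of replicate 1 and replicate 2 alone. Of 97345 distal coding exons, 2240 (2.30%) carried a region. Long exons did so more often per exon, from 1.84% of those up to 100 bp to 8.75% of those over 1000 bp. Per kb of exon the number with a region went from 0.264 to 0.0454, but each exon is counted once whatever its length, so neither measure is free of exon length. Exons with a region had a median GC content of 53.8%, against 49.6% for those without.

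Distal coding-exon regions were more often CpG-rich than other distal regions, and less often than all shared regions. A window was called CpG-rich at a GC content of at least 50% and an observed over expected CpG ratio of at least 0.6. This held for 221 (10.4%) of them, for 5.08% of distal regions on other exonic sequence, 1.23% of distal intronic, 3.79% of distal intergenic, 65.8% of promoter and 14.9% of all shared regions. Among regions that peaked in CDS the share was 24.5%, and among those that peaked in an intron 3.58%. CpG-rich distal coding-exon regions had median fold enrichments of 7.88 and 7.54.

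Another annotated start, of a non-coding transcript or of a RefSeq mRNA, lay within 1 kb of 440 distal coding-exon regions (20.8%), against 5.23% of distal intronic regions, 30.7% of distal regions on other exonic sequence and 23.5% of all shared regions. Most of these starts belonged to non-coding transcripts of coding genes, which lay near 347 regions. The 440 had median fold enrichments of 7.61 and 7.04, and the 1678 without such a start 6.52 and 5.78. Of the 100 strongest distal coding-exon regions 32 had such a start and 26 were CpG-rich. Whether these starts are used in the heart was not tested.

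The median distance from a protein-coding start was 26.1 kb, and 207 regions lay more than 100 kb away. The nearest start belonged to the host gene for 1433 (67.7%) and to another gene for 685 (32.3%), as at *Clint1*, where that of *Lsm11* was nearer. At the 10 kb limit, the nearest regions inside were on *S1pr3* at 10004 bp (8.96 and 7.79) and *Maats1* at 10015.5 bp (4.07 and 5.03), and the nearest left out were on *Map2k3* at 9997.5 bp (17.1 and 19.6) and *Wnt10a* at 9998.5 bp (11.1 and 7.79).

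The windows of 100 bp on each side of the replicate 1 summit were searched on both strands for 14 motifs of cardiac and general factors, each counted on its own even where motifs overlap. GATA letters stood in 32.5% of distal coding-exon regions, 37.4% of distal intronic regions and 31.5% of all shared regions. The TEAD letters GGAATG stood in 14.2%, against 17.0% in introns, and MEF2 letters, of the factors that drive muscle genes, in 2.93% against 4.95%. These letters were less frequent still where both summits lay in CDS, with 26.2% for GATA, 11.1% for TEAD and 0.943% for MEF2. The ETS letters CGGAAG were more frequent there, in 11.51%, against 3.66% of intronic regions.

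SP and KLF letters stood in 11.3% of distal coding-exon regions and 5.42% of intronic ones, and in 37.6% of the CpG-rich regions on coding exons. The core letters of CTCF, which binds at chromatin loop anchors, stood in 4.53% of distal coding-exon regions, 3.65% of distal regions on other exonic sequence and 2.01% of intronic ones, with 5.89% where both summits lay in an intron and 2.08% where both lay in CDS. GC content differed between these groups, with a median of 52.7% in distal coding-exon regions and 49.3% in intronic ones, and its part in the motif shares was not tested. Over all 96639 shared regions, the letters of TEAD stood in 14.7% of windows, NKX2 in 11.6%, AP-1 in 8.42%, MEF2 in 3.76%, ETS in 6.93%, SP and KLF in 15.4% and CTCF in 2.44%.

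**Figure D5:**
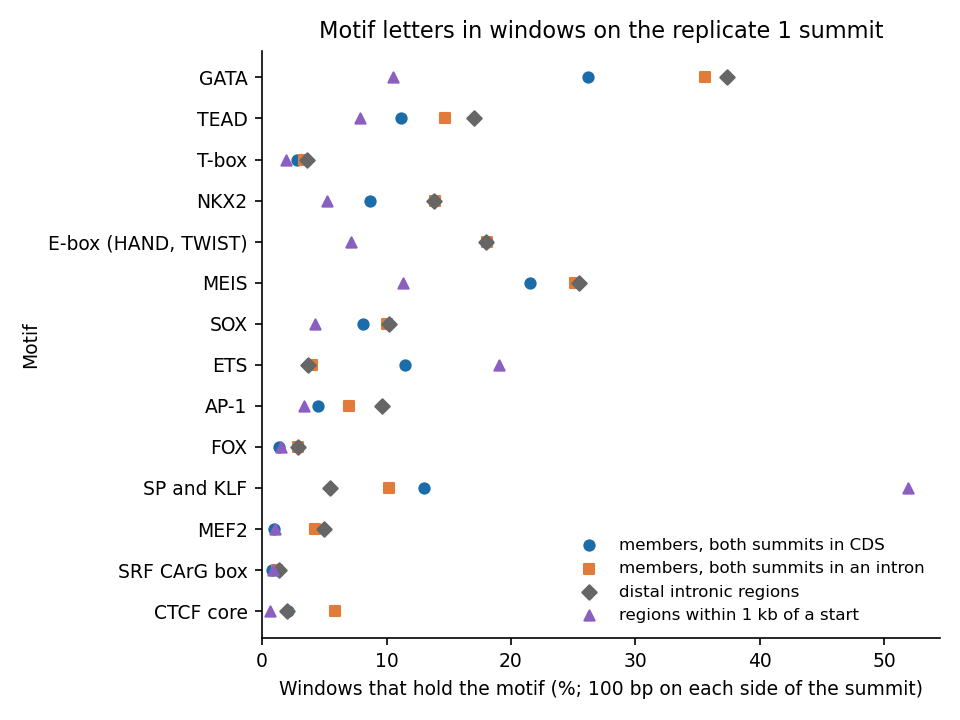
Percent of windows (100 bp on each side of the replicate 1 summit) that hold each of 14 motifs, for distal coding-exon regions with both summits in CDS or both in an intron, for distal intronic regions and for regions within 1 kb of a start. GATA letters stood in 26.2%, 35.6%, 37.4% and 10.6% of these, and SP and KLF letters in 13.0%, 10.2%, 5.42% and 51.9%.

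Of 10383 genes with distal coding sequence, 1703 (16.4%) carried a region, counting each gene where exons of several genes overlap. The share was higher with more distal CDS, from 5.56% of genes with up to 500 bp to 38.3% of those with more than 4000 bp. Genes listed for the sarcomere and Z-disc, the contractile apparatus of heart muscle, carried one in 15 of 26 (57.7%), among them the calcium channels *Cacna1c* and *Ryr2*, which are also in the ion channel list, and receptors and factors of endothelium and blood in 14 of 28 (50.0%). Sarcomere genes are long, with a median of 3224 bp of distal CDS against 1050 bp over all genes, and between 2000 and 4000 bp the share over all genes was 26.9%. The endothelium and blood list has a median of 1976 bp, and between 1000 and 2000 bp the share over all genes was 18.1%. The matrix, cytoskeleton and chromatin lists are long as well, with medians of 3740, 3898 and 3149 bp, and so are the ion channel, axon guidance and neuronal lists, with 2240.5, 2338.5 and 2512 bp. These medians all fall in the range with a share of 26.9%. Those of the matrix and cytoskeleton lists lie close to 4000 bp, above which the share was 38.3%. The part of gene length in these counts was not tested.

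*Ldb3*, a Z-disc protein, carried 4 regions, the strongest with 19.0 in replicate 1 and 15.8 in replicate 2. Another, at its exon 4, had 26.1 and 4.02, and there the replicate 1 peak has its summit outside the shared region. *Tpm1*, a tropomyosin, had 14.1 and 16.6 at 45 bp of its last coding exon. *Ttn*, the giant spring protein of the sarcomere, carried 4 regions, at 4.07 to 13.6 (replicate 1) and 3.77 to 9.30 (replicate 2). *Myom1*, of the M-band, had 11.7 and 9.80 with both summits in CDS. *Tnnt2*, cardiac troponin T, had 4.35 and 6.28 and *Mybpc3*, myosin binding protein C, 4.62 and 4.53, both below the median of all distal coding-exon regions in replicate 1.

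In the endothelial and blood list, *Kdr*, the main VEGF receptor, had 16.0 and 22.4. *Flt4*, the VEGF receptor of lymphatic endothelium, had 15.8 and 19.9 in its last exon and 5.43 and 5.78 in another. *Ets1*, an ETS factor of endothelium, had 17.1 and 13.3 with both summits in the CDS of exon 7. *Slc4a1*, the anion exchanger of red blood cells, carried 5 regions between 4.35 and 13.3 in replicate 1 and between 4.78 and 17.1 in replicate 2, but these values rest on 4 peaks of replicate 1 and 3 of replicate 2, 1 of which gave 17.1 to a pair of regions. The peaks that gave 13.3 and 17.1 have their summits outside protein-coding genes, and the region with both values holds 78 bp of CDS in 3299 bp. All 3 blood genes checked had a region at the promoter, with 29.9 and 34.4 at *Hbb-y*, 21.7 and 26.6 at *Klf1* and 12.2 and 15.1 at *Gata1*.

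Cardiac transcription factors carried a region in 6 of 27 genes (22.2%), namely *Mef2a*, *Mef2d*, *Meis1*, *Nfatc1*, *Zfhx3* and *Zfpm1*. *Zfpm1*, a GATA cofactor, had the strongest, with 20.9 and 22.4, in the longest of all distal coding-exon regions (4480 bp, of which 134 bp were CDS). Its summits lay in introns, 1092 bp apart between the replicates, so the 2 values belong to different sites. *Zfpm1* also had a weaker region, 5.98 and 5.03, with 745 bp of CDS. *Nfatc1*, a factor of valve formation, had 15.2 and 13.8, and *Meis1*, a homeobox factor, 7.06 and 7.29. *Mef2a* had 5.70 and 5.53 and *Zfhx3* 4.62 and 3.27, both with their summits in CDS.

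Notch, BMP, TGF-beta and Wnt genes carried a region in 6 of 39 (15.4%), close to the 16.4% of all genes with distal coding sequence. The Wnt coreceptor *Lrp6* had 21.5 and 18.6 in an exon, and 7.33 and 8.04 in its last exon. The ligand *Bmp7* had 8.42 and 7.79, and the Notch ligand *Jag1* 6.25 and 5.78. Among matrix genes, 15 of 48 carried a region (31.2%), led by *Col5a1*, a fibrillar collagen, with 12.5 and 15.3, and *Lamb1*, a laminin, with 12.5 and 11.3 and both summits in CDS. The median over the matrix list was 5.43 and 4.53.

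Ion channel and calcium handling genes carried a region in 10 of 28 (35.7%), led by *Casq2*, cardiac calsequestrin, with 11.95 and 17.3. The sodium channel *Scn8a* had 9.51 and 9.55 and the calcium channel *Cacna1d* 8.96 and 8.80. Axon guidance genes carried one in 12 of 36 (33.3%), with *Sema3d* at 24.4 and 20.6 and *Sema4a* at 22.8 and 18.9. The medians of these lists lay below those of all distal coding-exon regions (6.52 and 6.03), with 5.30 and 4.90 for ion channels and 5.70 and 4.53 for axon guidance. Neuronal genes did so in 10 of 32 (31.2%), with *Celf4*, an RNA-binding protein, at 26.6 and 30.2 and *Mapt*, the microtubule protein tau, at 16.8 and 19.4. The neuronal share equalled that of the matrix genes.

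Cytoskeleton and adhesion genes carried a region in 11 of 36 (30.6%). *Itga5*, the fibronectin receptor subunit, had 15.2 and 11.1 in one region and 5.98 and 11.1 in the next, where 1 replicate 2 peak spans both, and *Macf1*, a spectraplakin, had 12.2 and 8.55. Chromatin regulators carried one in 8 of 34 (23.5%), with *Rere* at 20.6 and 27.4, *Pbrm1*, a subunit of a SWI/SNF complex, at 16.6 and 19.6 and *Dnmt3a*, a DNA methyltransferase, at 15.2 and 12.8. Over the 10 regions of the chromatin list the medians of the replicates were far apart, at 10.2 in replicate 1 and 4.78 in replicate 2, and none had both summits in CDS. The start of a RefSeq mRNA lies within 1 kb of the regions on *Rere* and *Dnmt3a*, and that on *Rere* is CpG-rich with a non-coding start as well, as is that on *Celf4*.

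A few genes carried many distal coding-exon regions. *Ddc*, which makes dopamine and serotonin from their precursors, carried 6, at 5.43 to 17.7 (replicate 1) and 4.53 to 21.4 (replicate 2), and both of its strongest peaked in introns beside exons 10 and 11. *Igf2r*, the receptor that clears IGF2, carried 6, of which the strongest had 20.1 and 19.9. A neighbour had 20.1 and 5.53, where the replicate 1 peak spans both. *Ipo11*, an importin, carried 5, the strongest with 18.2 and 25.1.

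*Fry* carried 5 regions over its 61 exons, the strongest with 14.4 and 13.6, *Nav3*, a neuron navigator, 5 with the strongest at 14.1 and 12.1, and *Trappc9*, of a vesicle tethering complex, 5 with the strongest at 11.95 and 11.3. *Ryr1*, the calcium release channel of skeletal muscle, carried 5 over 106 exons, at 4.62 to 11.95 (replicate 1) and 4.27 to 11.3 (replicate 2). A region in its exon 91 was wholly coding (249 bp) and CpG-rich, with 4.62 and 4.27. In these 4 genes the replicates gave similar values for the strongest region.

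The labelled tissue was checked at the promoters of defining genes. All 7 genes of heart muscle, 4 of endothelium, 4 of epicardium and 3 of cushion mesenchyme had a shared region, such as *Tnnt2* (25.0 and 20.9). Of 5 genes of other tissues, *Myod1* had one (4.89 and 5.53), near those weakest values, and *Alb*, *Neurod1*, *Pax7* and *Krt5* had none. The share of all protein-coding genes with a region at the promoter was not computed, so these counts have no background beside them. The replicate lists hold 118027 and 114783 peaks. They carry no read totals, so depth is unknown and no counting interval was computed. All 32-base stretches occurred once in the genome for 95.3% of the summit windows of distal coding-exon regions, against 93.4% in introns, and copies that differ by single bases were not counted.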

How the data were processed

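ATAC-seq libraries of both replicates were sequenced as single-end reads. The authors trimmed the reads (Trim Galore 0.6.6), mapped them to mm10 (Bowtie2 2.4.2), filtered out duplicates and poorly mapped reads (SAMtools 1.12) and called peaks with MACS2 per replicate, without pooling; versions are from the submitters' processing notes. The authors' fold enrichment is a ratio taken at the summit of each peak. Also deposited are the −log10 of p and of q at the summit and a score, which is −log10 q times 10 cut to a whole number. Filtering poorly mapped reads lowers the values of repeated sequence. The shortest peaks (200 bp) and largest p-values differ from the stated calling limits.

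Shared regions were made with bedtools 2.31.1 and annotated with GENCODE M21. Starts of RefSeq mRNAs and all sequence came from RefSeq GRCm38. Scripts ran in Python 3.11.15 with pandas 2.3.3, NumPy 2.4.6, pysam 0.24.0, SciPy 1.17.1, Numba 0.67.0 and Matplotlib 3.10.9. Interval code was tested on simulated data, where 60 of 60 comparisons equalled a base-by-base count. With 1 group of 2 replicates no test was made, and regions were not treated as replicates. A distal region is over 10 kb from a start and a promoter region within 1 kb.

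Named were the 10 regions highest by mean fold enrichment, the 10 highest with both summits in CDS and a window free of UTR and off chromosome 18, the 3 highest of each of 10 gene lists, the genes with most regions, and those nearest the 10 kb limit. Promoters of the tissue check included the X chromosome. *Unc13a*, *Ttn*, *Myom1*, *Tnnt2*, *Mybpc3*, *Jag1*, *Mef2a* and *Zfhx3*, and second regions of listed genes, were added after their values were seen. The regions and lists were chosen with earlier results of these data known. Alternatives were other limits of p, q, overlap, distance and CDS, all annotated starts, each replicate alone, and motif windows on the midpoint of a region.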

Additional observations from a re-analysis of the deposited data

How the results depend on the processing

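No paired analysis was possible because there is 1 group and nothing to pair it with. From each replicate alone, the number of distal coding-exon regions was 2743 to 2769, the median fold enrichment 5.28 to 5.70, its log2 ratio to intronic regions 0.14, the ratio of accessible CDS to intron 1.09 to 1.16, and the share with the summit in CDS 32.8% to 34.3%, where a single summit is asked for instead of 2. The number fell from 2118 to 1006 at a q-value of at most 1e-10, to 1337 beyond 20 kb and to 953 when starts of all annotated transcripts were used, each by fewer regions passing. The median fold enrichment rose to 9.58 at that q-value. The ratio of accessible CDS to intron was 1.24 beyond 5 kb. Both summits lay in CDS in 23.2% at the stricter q-value, 26.0% at a reciprocal overlap of 50%, 29.0% with all starts and 30.3% with at least 50 bp of CDS. The Spearman correlation was 0.81 at a p-value of at most 0.00001, 0.86 at the reciprocal overlap, 0.79 beyond 5 kb and beyond 20 kb, and 0.82 with all starts and with 50 bp of CDS. The share of replicate 1 peaks found in replicate 2 was 80.8% at that p-value, 78.4% at that q-value, 75.05% at the reciprocal overlap, 84.8% beyond 5 kb, 81.3% with all starts and 84.2% with 50 bp of CDS. For replicate 2 peaks it was 86.4% at either limit of p or q, 75.4% at the reciprocal overlap and 85.1% with 50 bp of CDS. With motif windows on the midpoint of the region, 7 of 14 motif shares moved by more than the spread between replicates, and GATA fell from 32.5% to 29.8%, below the 31.5% that summit windows gave over all shared regions, for which midpoint windows were not searched. The log2 ratio of coding-exon to intronic medians stayed above 0 in each alternative run. Apart from the effect of a stricter limit on counts, the causes were not tested.

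Peak lists without read totals limit what can be said: weak peaks near the calling limit and their absence cannot be given an error. Peaks that span several shared regions carry 1 value to each of them, which touched 199 of the 2118 regions.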

Other observations

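The X chromosome, outside the choice of autosomes, held 26 distal coding-exon regions among 2211 shared regions (1.18%), with median fold enrichments of 7.06 in replicate 1 and 7.16 in replicate 2. On the autosomes, coding-exon regions between 1 and 10 kb from a start numbered 2288, with medians of 7.06 and 6.79. The number of distal coding-exon regions per Mb of distal coding sequence ranged from 94.8 on chromosome 9 to 170.7 on chromosome 12.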
